A study of Rattus norvegicus with 6 samples.

Results

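The miR-17-92 cluster is a group of microRNAs (miRNAs) cut from 6 hairpins of a single primary transcript. Its members were taken by name from the deposited count table of mature rat miRNAs: rno-miR-17-5p, rno-miR-18a-5p, rno-miR-18a-3p, rno-miR-19a-3p, rno-miR-19b-3p, rno-miR-20a-5p, rno-miR-92a-3p and rno-miR-92a-1-5p (named without the rat prefix rno in most places), 8 entries of 764. The RNA came from small extracellular vesicles, membrane-bound particles that cells release, purified from 2 ml of rat plasma, and its fraction of 18 to 30 nucleotides was sequenced. The 3 control libraries came from control rats. The 3 diabetic libraries came from rats with 8 weeks of diabetes, caused by an intraperitoneal dose of streptozotocin, a beta cell toxin, at 65 mg/kg given while fasting, and accepted on a fasting glucose above 11.1 mmol/L. All animals were male wild-type Sprague-Dawley rats, an outbred stock, aged 6 to 8 weeks when obtained. No vehicle injection of the controls is named in the labels, and the labels do not say whether each library came from a separate animal or from a pool, so p-values reflect only how these samples vary, which may be technical.

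A miRNA guides a silencing complex to messenger RNAs that pair with its seed, bases 2 to 8 counted from its 5′ end. The miR-17-92 cluster is known from mouse and human work for promoting cell growth and survival: it is amplified in lymphomas, it is switched on by the transcription factor MYC, and mice without it die at birth with small lungs, heart defects and a block in B cell development. Within it, miR-17 and miR-20a repress cell cycle regulators such as E2f1 and Cdkn1a, and miR-18a represses the matrix protein gene Ctgf. miR-92a represses the integrin Itga5 and, in endothelial cells, the flow-responsive factor Klf2. These roles were described in mouse and human cells and were not measured here.

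The mature sequences show which members share a seed and how close the members of a pair are. In RefSeq's rat assembly GRCr8 the 6 hairpins lie on the plus strand of chromosome 15 in the order miR-17, miR-18a, miR-19a, miR-20a, miR-19b-1 and miR-92a-1, within 785 bases. All 8 members had a RefSeq sequence, printed 5′ to 3′ with the seed in capitals.
miR-17-5p: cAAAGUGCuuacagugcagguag
miR-20a-5p: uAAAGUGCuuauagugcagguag
miR-18a-5p: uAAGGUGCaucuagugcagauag
miR-18a-3p: aCUGCCCUaagugcuccuucu
miR-19a-3p: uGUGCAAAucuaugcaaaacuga
miR-19b-3p: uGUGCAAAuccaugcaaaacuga
miR-92a-3p: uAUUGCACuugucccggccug
miR-92a-1-5p: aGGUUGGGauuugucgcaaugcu
With positions counted from the 5′ end and the first-named miRNA's base given first, miR-17-5p and miR-20a-5p differed at 2 of 23 bases, C1U and C12U, and share the seed AAAGUGC. miR-19a-3p and miR-19b-3p differed at a single base outside their shared seed GUGCAAA, U11C. miR-18a-5p differed from miR-17-5p at 6 bases, of which A4G lies in the seed. The mature forms of miR-17-5p, miR-19b-3p and miR-92a-3p are also encoded, letter for letter, by 2 loci each, the second on chromosome X in the paralogous cluster that RefSeq lists as Mir106a (a synonym of Mir17-2), Mir19b2 and Mir92a2. Counts of these 3 members therefore cannot be divided between chromosomes 15 and X, whereas miR-18a, miR-19a, miR-20a and miR-92a-1-5p matched chromosome 15 only. How reads matching several miRNAs were counted is not given in the sources used here, so the single values of near-identical members are uncertain.

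Total miRNA counts ran from 6254077 to 8930730 per library. Values per library are given in the order of replicates 1, 2 and 3. Levels below are counts scaled to a common library total (counts per 1e+06, CPM) after correction by the trimmed mean of M values (TMM), called normalized CPM. With 3 counts as the limit that a count of 0 allows, the floor was 0.336 to 0.48 CPM by library size, for counting error only. The TMM factors were 0.702 to 0.978 in control and 1.12 to 1.27 in diabetic libraries, so that scaling itself separated the groups. Without TMM the median log2 fold change of all 362 tested miRNAs was 0.61, against 0.019 with it, and each fold change below is relative to the TMM median.

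The cluster held 0.657%, 0.818% and 0.562% of miRNA counts across the control libraries, against 0.96%, 0.591% and 1.01% across the diabetic libraries. Diabetic replicate 2 lay among the controls and the groups overlapped. The means differed by 0.173 percentage points, or by 0.0961 without diabetic replicate 3, 0.114 without control replicate 3 and 0.304 without diabetic replicate 2. The mean share was 0.679% ± 0.13 in control and 0.852% ± 0.228 in diabetic libraries (SD, n = 3 each), and the 95% Wilson interval of the lowest share ran from 0.557% to 0.568%. miR-92a-3p supplied nearly all of it, at 94.8%, 96.1% and 96.0% of the cluster's counts across the control libraries, against 93.7%, 92.4% and 94.4% across the diabetic libraries. Every diabetic library lay below every control library in that portion.

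By mean CPM over the 6 libraries, miR-92a-3p ranked 23rd of 362 tested miRNAs. The next members in order were miR-20a-5p at rank 117, miR-17-5p at 121, miR-19b-3p at 126, miR-18a-3p at 191, miR-19a-3p at 200, miR-18a-5p at 283 and miR-92a-1-5p at 361. From miR-20a-5p down to miR-19a-3p, neighbours in this order had overlapping ranges of CPM over the 6 libraries, while miR-92a-3p lay above miR-20a-5p in every library, and miR-18a-5p and miR-92a-1-5p each lay wholly below the member before. The scale is a share of counts and not molar, since miRNAs differ in how well adaptors attach to them. All 8 members passed the filter on low counts.

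**Figure D1:**
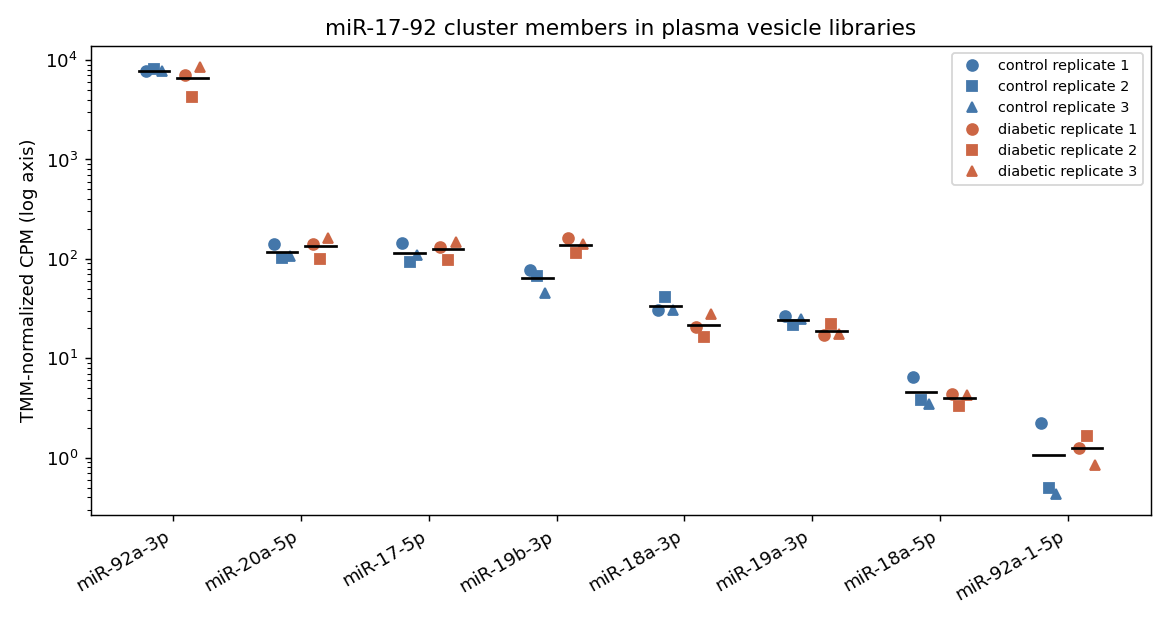
TMM-normalized CPM (log axis) of the 8 members in each of 6 libraries, with control in blue and diabetic in orange, marker shapes for replicates and bars for group means. miR-92a-3p stood between 4294 and 8471 in all libraries, and miR-19b-3p was higher in every diabetic than in every control library.

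The study asked how plasma vesicle miRNAs change in diabetes, which sets diabetic against control libraries. Of the 8 members 0 were called in edgeR's quasi-likelihood test at a Benjamini-Hochberg adjusted p below 0.05 over all tested miRNAs, where 1.66% of all 362 were called. At an unadjusted p below 0.05 there was 1 member, miR-19b-3p, against 22.7% of all tested miRNAs, and DESeq2 called that 1 member, against 11.6% of all, while edgeR's exact test called 0 members, against 8.29% of all, and limma-voom 0, against 1.1% of all. Of the 8 log2 fold changes 4 lay above 0 and 4 below, with a median of -0.044 and a range of -0.66 to 1.12, beside 50.6% above 0 and a median of 0.019 over all tested miRNAs. Groups did not overlap for 2 members, miR-19b-3p (higher) and miR-18a-3p (lower), against 27.9% of all tested. By library size alone 7 of 8 members lay above 0, against 72.9% of all.

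rno-miR-19b-3p, the member of the miR-19 pair that chromosomes 15 and X both encode, stood at 76.6, 68.0 and 45.7 normalized CPM across the control libraries, against 161, 114 and 140 across the diabetic libraries. All 3 diabetic libraries lay above all 3 controls, and control replicate 3 was the lowest library. The means were 63.5 ± 15.9 and 138 ± 23.5 (SD, n = 3 each), from 210 to 549 counts per control library and 1104 to 1540 per diabetic library. Its log2 fold change was 1.12 (SE 0.36, 95% interval 0.33 to 1.92), with an edgeR quasi-likelihood adjusted p of 0.112, so that it did not pass. The fold change stayed above 0 under each of 5 scalings, from 0.82 with upper quartile factors to 1.66 with library size alone, and under each left-out library, from 0.92 to 1.26. With library size alone the same edgeR test gave an adjusted p of 0.0317, where 12.4% of all tested miRNAs were called higher, and in DESeq2 it was 0.0315. Over all 15 alternatives the adjusted p ran from 0.0315 to 0.317.

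In the authors' deposited table miR-19b-3p had a log2 fold change of 1.66 with a false discovery rate of 0.0122. It was the single member below 0.05 in the authors' deposited table, where 11.1% of the 566 miRNAs with a count were below 0.05 and 10.1% were also higher in diabetic libraries. The authors' deposited table gave the other 7 members false discovery rates of 0.299 to 0.967, with log2 fold changes from -0.14 for miR-18a-3p to 0.85 for miR-92a-1-5p. These fold changes are ratios of CPM by library size, without TMM.

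miR-19a-3p shares the miR-19b-3p seed and differs from it by U11C alone, and is encoded on chromosome 15 alone. It stood at 26.7, 21.6 and 24.8 normalized CPM across the control libraries, against 17.2, 22.2 and 17.6 across the diabetic libraries. Diabetic replicate 2 lay above control replicate 2, and the groups overlapped. The log2 fold change of rno-miR-19a-3p was -0.36 (SE 0.34, 95% interval -1.12 to 0.40, edgeR quasi-likelihood adjusted p 0.552), and it turned to 0.22 with library size alone.

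The ratio of both miR-19 forms within a library does not depend on how libraries are scaled to each other. There were 0.348, 0.317 and 0.543 counts of miR-19a-3p per count of miR-19b-3p across the control libraries, against 0.106, 0.194 and 0.126 across the diabetic libraries. Every diabetic library was below every control library. The mean log2 ratio was -1.35 ± 0.41 in control and -2.86 ± 0.44 in diabetic libraries (SD, n = 3 each), a difference of -1.51, or -1.27 to -1.75 when single libraries were left out. The exact permutation test (two-sided) returned p = 0.1, the smallest that 3 libraries against 3 allow, and 0.3 after Benjamini-Hochberg adjustment over the 6 ratios tested, so this design could not reach 0.05.

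miR-17-5p, a repressor of cell cycle genes and the first hairpin of the transcript, stood at 144, 93.2 and 110 normalized CPM across the control libraries, against 131, 98.3 and 147 across the diabetic libraries. The groups overlapped, and control replicate 1 lay near the highest diabetic library. For rno-miR-17-5p the log2 fold change was 0.11 (SE 0.35, 95% interval -0.66 to 0.89, edgeR quasi-likelihood adjusted p 0.873), or 0.68 with library size alone, -0.15 with upper quartile factors, -0.021 without control replicate 2 and 0.28 without control replicate 1. miR-20a-5p, which has the same seed, stood at 141, 101 and 106 normalized CPM across the control libraries, against 142, 99.5 and 162 across the diabetic libraries. Again the groups overlapped and the same 2 libraries, control replicate 1 and diabetic replicate 3, were the highest of their groups. For rno-miR-20a-5p the log2 fold change was 0.21 (SE 0.35, 95% interval -0.57 to 0.99, edgeR quasi-likelihood adjusted p 0.76), or 0.77 with library size alone and -0.058 with upper quartile factors. It was 0.38 without diabetic replicate 2 and 0.093 without diabetic replicate 3. By library size alone, every diabetic library was above every control library for both and for miR-19b-3p, 3 of 8 members, where 32.6% of all tested miRNAs were.

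Within a library miR-20a-5p and miR-17-5p kept close to equal counts. The ratio was 0.98, 1.09 and 0.968 across the control libraries, against 1.09, 1.01 and 1.10 across the diabetic libraries, with overlapping groups. The mean log2 ratio differed by 0.080 between groups (0.014 ± 0.091 in control, 0.094 ± 0.067 in diabetic, SD, n = 3 each, two-sided exact permutation p = 0.2, 0.36 adjusted over the 6 ratios). The ratio of miR-19b-3p to miR-17-5p was 0.531, 0.73 and 0.417 across the control libraries, against 1.23, 1.16 and 0.949 across the diabetic libraries. Every diabetic library was above every control library, and the mean log2 ratio was higher by 1.03, or by 0.83 to 1.24 when single libraries were left out. The exact permutation p was again 0.1, with 0.3 after adjustment. Each ratio whose groups were apart contains miR-19b-3p, so these ratios are not independent of its level or of each other.

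**Figure D2:**
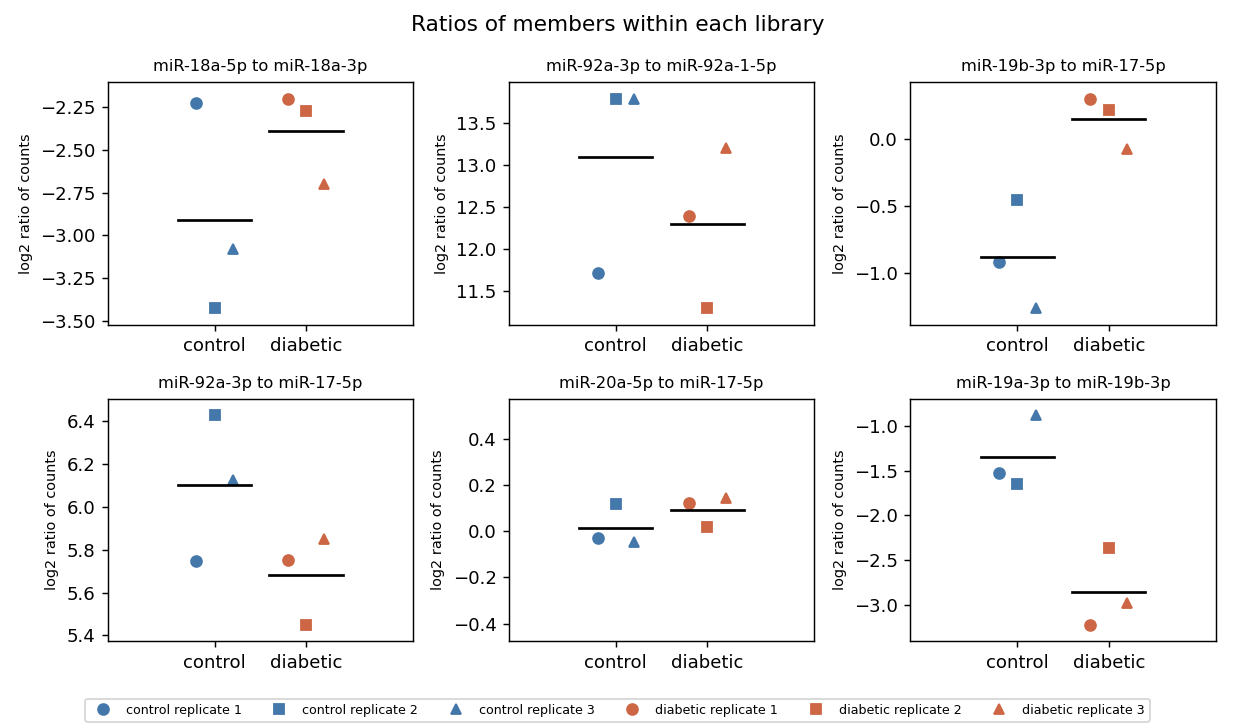
Log2 ratio of counts of 2 members within each library (each panel on its own scale), with control in blue, diabetic in orange, shapes for replicates and bars for group means. The groups are apart for miR-19b-3p to miR-17-5p and for miR-19a-3p to miR-19b-3p, and miR-20a-5p to miR-17-5p stays between -0.046 and 0.144.

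In miR-18a the 3p arm outnumbered the 5p arm, although the 5p arm carries the seed related to that of miR-17. miR-18a-5p had 46, 23 and 16 counts across the control libraries, against 42, 32 and 40 across the diabetic libraries, or 6.42, 3.76 and 3.49 and 4.4, 3.31 and 4.24 normalized CPM. Control replicate 1 was the highest of the 6 libraries and the groups overlapped. For rno-miR-18a-5p this gave a log2 fold change of -0.20 (SE 0.46, 95% interval -1.22 to 0.81, edgeR quasi-likelihood adjusted p 0.826), which was 0.11 without control replicate 1 and 0.36 with library size alone.

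miR-18a-3p stood at 30.3, 41.2 and 30.3 normalized CPM across the control libraries, against 20.4, 16.3 and 27.9 across the diabetic libraries. All 3 diabetic libraries lay below all 3 controls, with diabetic replicate 3 close to the lowest of these. Its means were 33.9 ± 6.31 and 21.5 ± 5.9 (SD, n = 3 each), and its log2 fold change was -0.66 (SE 0.37, 95% interval -1.47 to 0.16, edgeR quasi-likelihood adjusted p 0.287). It was below 0 under each of 5 scalings, from -0.93 to -0.14, the latter with library size alone, where the groups overlapped. There were 0.212, 0.0913 and 0.115 counts of the 5p arm per count of the 3p arm across the control libraries, against 0.215, 0.204 and 0.152 across the diabetic libraries. The log2 arm ratio was higher by 0.52 in diabetic libraries with overlapping groups (exact permutation p = 0.3, 0.36 adjusted over the 6 ratios). It was higher by 0.86 without control replicate 1 and by 0.26 without control replicate 2.

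miR-92a-3p, the abundant member and a repressor of Itga5, stood at 7764, 8042 and 7689 normalized CPM across the control libraries, against 7058, 4294 and 8471 across the diabetic libraries. The controls lay close together, while diabetic replicate 2 was the lowest and diabetic replicate 3 the highest of the 6 libraries. The means were 7831 ± 186 and 6608 ± 2125 (SD, n = 3 each), and the log2 fold change was -0.25 (SE 0.35, 95% interval -1.03 to 0.54, edgeR quasi-likelihood adjusted p 0.721). With library size alone it was 0.30, and it was -0.021 without diabetic replicate 2 and -0.44 without diabetic replicate 3. Per count of miR-17-5p there were 53.8, 86.3 and 70.0 counts of miR-92a-3p across the control libraries, against 54.0, 43.7 and 57.7 across the diabetic libraries. The groups overlapped through control replicate 1, and the log2 ratio differed by -0.42 (exact permutation p = 0.3, 0.36 adjusted over the 6 ratios), or by -0.25 to -0.60 when single libraries were left out, the former without control replicate 2.

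miR-92a-1-5p, the opposite arm that marks the chromosome 15 hairpin, was near the detection limit, with 16, 3 and 2 counts across the control libraries, against 12, 16 and 8 across the diabetic libraries. In normalized CPM these were 2.23, 0.491 and 0.436 across the control libraries, against 1.26, 1.66 and 0.849 in diabetic libraries. Control replicates 2 and 3 did not exceed 3 counts, and control replicate 1 was the highest library. Its log2 fold change of 0.19 (SE 0.77, 95% interval -1.52 to 1.90, edgeR quasi-likelihood adjusted p 0.904) was -0.15 without control replicate 2 and 1.38 without control replicate 1. The ratio of miR-92a-3p to this arm ran from 3477 to 17648 in control and from 2592 to 9981 in diabetic libraries, with overlapping groups (log2 difference -0.80, exact permutation p = 0.5, also after adjustment). That difference was -0.30 without diabetic replicate 2 and -1.49 without control replicate 1.

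**Figure D3:**
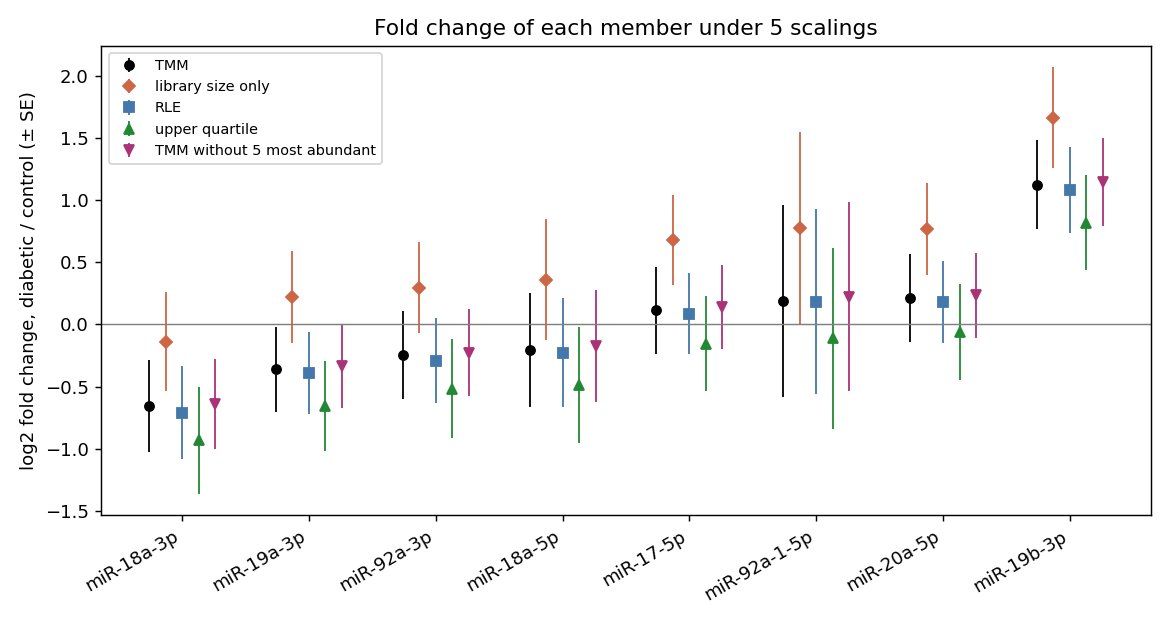
Log2 fold change of each member, diabetic over control, with its SE, from edgeR's quasi-likelihood test under 5 scalings of the libraries. miR-19b-3p stays above 0 (0.82 to 1.66) and miR-18a-3p below 0 (-0.93 to -0.14), while the points of the other 6 members lie on either side of 0.

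Summed by seed, the group of miR-19a-3p and miR-19b-3p had 103, 89.6 and 70.6 normalized CPM across the control libraries, against 179, 137 and 157 across the diabetic libraries, so that the groups stayed apart when both forms were counted together. miR-19b-3p made up 84.0% of that sum over all libraries. The seed AAAGUGC is held by 5 entries of the table, miR-17-5p, miR-20a-5p, miR-20b-5p, miR-93-5p and miR-106b-5p, with 436, 345 and 326 normalized CPM across the control libraries, against 550, 365 and 506 across the diabetic libraries. Control replicate 1 lay above diabetic replicate 2, and the log2 difference of the means was 0.36. In that sum miR-93-5p held 34.0% of counts, miR-20a-5p 29.5% and miR-17-5p 28.1%. The seed AUUGCAC of miR-92a-3p is held by 5 entries, of which miR-25-3p gave 69.5% of counts and miR-92a-3p 30.0%, and this sum was 23267 ± 3039 in control and 23591 ± 5208 in diabetic libraries (SD, n = 3 each). These sums hold together the reads that near-identical members could exchange, and they are given without a test.

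Besides the members miR-18a-3p and miR-92a-1-5p, most opposite arms of the cluster's hairpins and of the X-linked miR-17, miR-19b and miR-92a copies were scarce. The table listed 7 such further arms, of which 1 passed the filter on low counts. That was miR-17-2-3p, from the chromosome X copy of miR-17, with 194, 37 and 48 counts across the control libraries, against 188, 295 and 152 across the diabetic libraries and overlapping groups (log2 fold change 0.60, SE 0.54, edgeR quasi-likelihood adjusted p 0.527). Its chromosome 15 counterpart miR-17-1-3p had 3, 2 and 0 counts across the control libraries, against 7, 8 and 12 across the diabetic libraries. It was not tested, and the control counts did not exceed the limit of 3. miR-19a-5p and miR-19b-1-5p had at most 3 counts in any library, miR-20a-3p at most 2, and miR-19b-2-5p and miR-92a-2-5p had 0 in all.

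Of the paralogs in the miR-106b-25 cluster and the X-linked cluster and of relatives with a shared seed, the table listed 14 arms and 13 were tested. Of the 13, 0 were called in edgeR's quasi-likelihood test (1.66% of all tested miRNAs), its exact test (8.29%), DESeq2 (11.6%) or limma-voom (1.1%). An unadjusted p below 0.05 was found for 2, miR-93-5p and miR-363-5p, against 22.7% of all. Their log2 fold changes lay above 0 for 8 and below 0 for 5, with a median of 0.22, or 0.76 with library size alone. miR-93-5p, which shares the miR-17 seed, stood at 107, 111 and 81.7 normalized CPM across the control libraries, against 237, 131 and 163 across the diabetic libraries, without overlap. Its log2 fold change was 0.82 (SE 0.36, edgeR quasi-likelihood adjusted p 0.21), and with library size alone 1.37 (adjusted p 0.049 in the same test), 1 call among the 13, where 12.4% of all tested miRNAs were called higher. miR-106b-5p, with the same seed, had -0.048 (SE 0.34) and the abundant miR-25-3p, with the miR-92a seed, 0.14 (SE 0.34), both with overlapping groups. miR-106b-3p stood at 0.23 (SE 0.32). The miR-92b arms lay below 0, miR-92b-3p at -0.81 (SE 0.39) and miR-92b-5p at -1.63 (SE 0.74), each with all diabetic libraries below all controls in normalized CPM. By library size alone the groups overlapped for each of these arms. Groups did not overlap in normalized CPM for 27.9% of all tested miRNAs. miR-363-3p stood at 0.22 (SE 0.50), and miR-363-5p, of the X-linked cluster, at -1.31 (SE 0.57) with overlapping groups.

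Likeness of pattern was measured as the root mean square difference in log2 normalized CPM over the 6 libraries, each miRNA centred on its own mean. All patterns share the libraries and their scaling. miR-17-5p and miR-20a-5p were each other's nearest of 361 other miRNAs, at 0.0764, where the median difference from miR-17-5p was 0.624. After miR-20a-5p the nearest to miR-17-5p were let-7d-5p at 0.149 and miR-30e-5p at 0.165, and miR-18a-5p was in 7th place at 0.201. miR-92a-3p was in 46th, miR-19a-3p in 72nd, miR-18a-3p in 121st, miR-19b-3p in 150th and miR-92a-1-5p in 171st place from miR-17-5p.

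The nearest to miR-20a-5p after miR-17-5p were miR-30e-5p at 0.132 and miR-132-3p at 0.175. miR-19b-3p lay nearest to miR-6319 at 0.209, miR-181c-5p at 0.212 and miR-503-5p at 0.226, and its near-identical partner miR-19a-3p was in 193rd place at 0.827, beyond the median of 0.799. miR-19a-3p lay nearest to miR-30a-3p at 0.114, miR-24-3p at 0.153 and miR-3068-3p at 0.16. miR-92a-3p lay nearest to miR-191a-5p at 0.12, miR-361-5p at 0.193 and miR-702-3p at 0.205, and miR-18a-3p was in 9th place from it at 0.251. miR-18a-5p lay nearest to miR-27a-3p at 0.127, miR-130a-3p at 0.161 and miR-32-5p at 0.17. The nearest to miR-18a-3p were miR-484 at 0.102, miR-6324 at 0.147 and miR-702-3p at 0.174. For the sparse miR-92a-1-5p they were miR-26b-5p at 0.251, let-7g-5p at 0.285 and miR-299b-3p at 0.306.

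**Figure D4:**
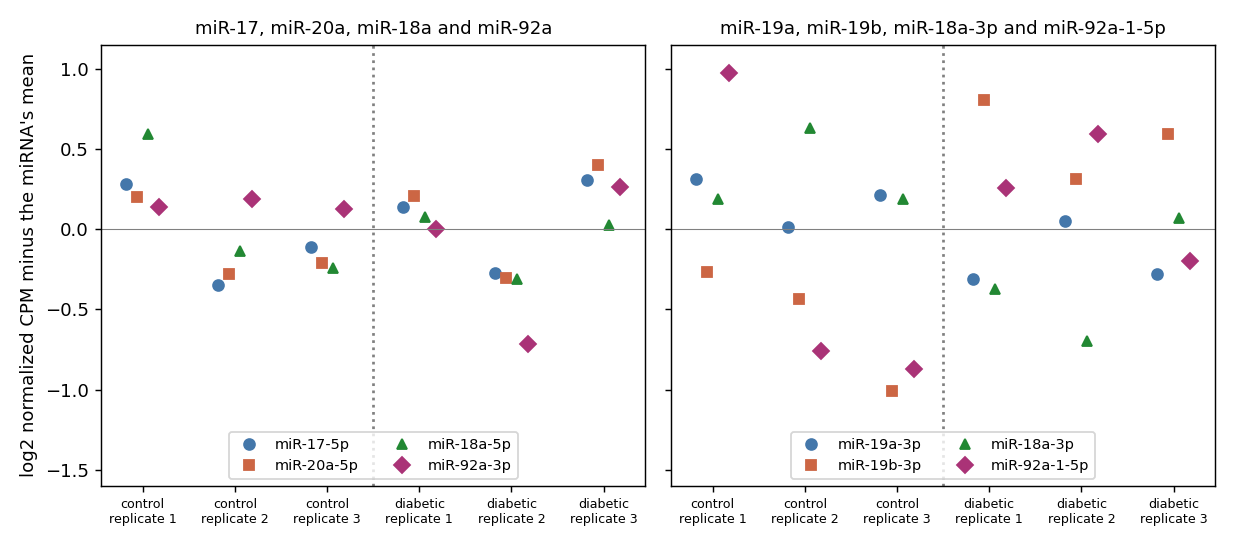
Log2 normalized CPM of each member minus its own mean over the 6 libraries, by library, with control left and diabetic right of the dotted line. miR-17-5p and miR-20a-5p lie close together in every library (root mean square difference 0.0764), and miR-19b-3p is below its mean in the 3 control and above it in the 3 diabetic libraries while miR-19a-3p is not.

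Cluster members are also present in blood cells and endothelium, whose markers were followed in the same libraries. In bulk vesicle RNA fewer vesicles of a source and less RNA per vesicle cannot be told apart. Of 5 erythrocyte entries none was at 0 and all were tested, with 1 above 0 and 4 below. Their summed level was 87438 to 187223 normalized CPM in control and 40223 to 72956 in diabetic libraries. Most of each sum was miR-486 alone, at 74691 to 175585 normalized CPM in control and 36699 to 69537 in diabetic libraries. The defining erythrocyte markers stood at log2 fold changes of -1.33 (SE 0.40) for miR-451-5p, -1.02 (SE 0.44) for miR-486 and -0.22 (SE 0.41) for miR-144-3p. The entry above 0 was miR-144-5p, the other arm of miR-144, at 0.52 (SE 0.36). It was higher in every diabetic than in every control library, in normalized CPM and by library size alone. Groups did not overlap in normalized CPM for 27.9% of all tested miRNAs. By library size alone 32.6% were higher in diabetic libraries without overlap. The log2 ratio of the red cell miR-451-5p to miR-23a-3p, which is followed as a sign of red cell rupture in plasma, was 1.87, 4.14 and 3.02 in control and 0.117, -0.068 and -0.027 across the diabetic libraries. All controls lay above all diabetic libraries. The reference miR-23a-3p itself stood at 3479, 658 and 733 normalized CPM in the controls, against 4755, 3660 and 3442 in the diabetic libraries, with overlapping groups and a log2 fold change of 1.28 (SE 0.60). The separation of the erythrocyte sum was also bound to the scaling: by library size alone it was 70148 to 183053 CPM in control and 51110 to 88374 in diabetic libraries, which overlapped. The part of red cell RNA in the cluster's values was not tested.

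The endothelial miR-126a arms, 2 of 2 tested above 0, summed to 4149 to 5186 normalized CPM in control and 6444 to 9924 in diabetic libraries. By library size alone these sums were also apart (3640 to 4056 and 7228 to 12611 CPM), and miR-126b was at 0. Of all tested miRNAs 27.9% did not overlap in normalized CPM, in either direction. By library size alone 32.6% were higher in diabetic libraries without overlap. The defining marker miR-126a-3p had a log2 fold change of 0.78 (SE 0.33). Sums over 8 platelet entries (21821 to 26894 in control, 22310 to 28858 in diabetic), 10 leukocyte entries (5862 to 11302 and 9516 to 10381) and 6 liver entries (39268 to 299730 and 45373 to 75614) overlapped between groups. By library size alone the platelet sums (16272 to 21576 CPM in control, 28349 to 32366 in diabetic) and the leukocyte sums (4115 to 9067 and 10673 to 13224) did not overlap, and the liver sums did. Above 0 were 5 of 8 tested platelet, 6 of 9 tested leukocyte and 1 of 6 tested liver entries. The miR-126a arms are in the endothelial and the platelet list, and the miR-223 arms in the platelet and the leukocyte list. These counts and sums are therefore not independent of each other. The platelet entries in no other list were miR-191a-3p at -1.22, miR-191a-5p at -0.20, miR-425-5p at -0.21 and miR-425-3p at 0.58. Leukocyte entries below 0 were miR-342-5p at -1.61 (SE 0.42), miR-342-3p at -0.57 and miR-150-3p at -0.20. For miR-342-5p every diabetic library lay below every control library in normalized CPM. It did so by library size alone too, as did 13 of all 362 tested miRNAs. None of the defining markers of these lists was at 0, and log2 fold changes were 1.06 (SE 0.57) for miR-223-3p, -0.20 (SE 0.35) for miR-191a-5p, 0.22 (SE 0.41) for miR-142-3p, 0.77 (SE 0.55) for miR-150-5p and -1.15 (SE 0.68) for miR-122-5p. The part of these sources in the cluster's values was not tested.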

How the data were processed

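Small RNA was sequenced on an Illumina HiSeq 2500, per the labels' protocols, and rn6 is the build named in the submitters' processing notes. How reads were aligned, how multiply matching reads were counted and which miRNA release was used are not given in the sources used here. The authors deposited whole-number counts per mature miRNA in 2 tables, identical in all 4584 cells, and in the second table CPM values (recomputed within 0.01), log2 fold changes of mean CPM (recomputed within 1e-06) and p-values, credited to edgeR in its name and to DEGseq in the series text. No batch is given in the labels.

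Members, lists, ratios and tests were chosen with earlier results of these data known. Counts of all miRNAs were tested with edgeR 4.0.16 (R 4.3.3; filterByExpr at minimum count 10 and minimum total count 15, keeping 362 of 764 entries with 99.993% of counts; TMM; quasi-likelihood test, two-sided, Benjamini-Hochberg over all tested, threshold 0.05). SE is the fold change over the square root of F. Ratios were log2 with 0.5 added to each count, tested by two-sided exact permutation. Seed sums and shares have no test. Alternatives were other scalings, no filter, DESeq2 1.42.0, edgeR's exact test, limma-voom (limma 3.58.1), a replicate block and left-out libraries. No library was a copy of another (chi-square per degree of freedom at least 795.8). Named were all members, the list entries with the highest level or smallest p, the 3 miRNAs nearest in pattern and defining markers. Also named, outside that rule, were miR-106b-5p, miR-20b-5p, miR-92b-3p, the scarce other arms, miR-23a-3p and some further marker list entries. Sequences are from RefSeq (GRCr8), which matched 689 of 764 entries by name. PCR duplicates cannot be told from molecules, so intervals of shares and limits cover counting error only.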

Additional observations from a re-analysis of the deposited data

How the results depend on the processing

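Of 120 alternative values of the 8 members' log2 fold changes, 106 kept their direction and side of the threshold, 3 passed it and 11 turned. The 3 were miR-19b-3p with library size alone, with DESeq2 and with a replicate block (1.14, edgeR quasi-likelihood adjusted p 0.0474). With library size alone miR-18a-5p, miR-19a-3p and miR-92a-3p turned to 0.36, 0.22 and 0.30. With upper quartile factors miR-17-5p, miR-20a-5p and miR-92a-1-5p turned to -0.154, -0.058 and -0.111. miR-18a-5p turned to 0.11 without control replicate 1, miR-17-5p to -0.021 without control replicate 2, and miR-92a-1-5p to -0.153, -0.148 and -0.063 without control replicate 2, control replicate 3 and diabetic replicate 2. With single libraries left out these 3 ran from -0.37 to 0.11, -0.021 to 0.28 and -0.15 to 1.38. The cause was not tested.

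The count of called members, 0, became 1 with library size alone, DESeq2 and the block, and stayed 0 under the other 12 alternatives, the 6 left-out libraries included. Over all miRNAs the 6 calls became 49 with library size alone (91.8% of these higher, against 33.3%), 4 with RLE factors, with TMM without the 5 most abundant miRNAs and with limma-voom, 2 with upper quartile factors, 9 with no filter, 42 with DESeq2, 30 with the exact test, 57 with the block and 0 to 49 with single libraries left out. Calls of paralogs and other arms went from 0 to 1 with library size alone. Log2 differences of seed sums became 0.92 for AAAGUGC, 0.37 for AAGGUGC (turned from -0.19), 0.56 for AUUGCAC, -0.14 for CUGCCCU and 1.39 for GUGCAAA with library size alone. The difference in the cluster's share, 0.173 percentage points, was 0.0387 when the 5 most abundant miRNAs were taken out of the denominator.

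Replicate numbers are shared between groups without a stated link. Deviations of same-numbered libraries correlated at 0.28, 0.0012 and 0.25, so the numbers were not taken to pair samples, and not every library correlated best with its own number. With the replicate block the log2 ratios differed by 1.03 for miR-19b-3p to miR-17-5p and -1.51 for miR-19a-3p to miR-19b-3p, with an exact p of 0.25, the smallest that 3 pairs allow. Depth limits miR-92a-1-5p and miR-18a-5p, with 2 to 16 and 16 to 46 counts per library.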
